A study of Mus musculus with 3 samples.

Results

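Nuclear-encoded respiratory chain genes were taken as all gene symbols in the deposited feature lists that begin with Nduf followed by a, b, c, s or v and a digit, with Uqcr, with Cox4 to Cox8 or with Atp5 and a letter, together with Sdha to Sdhd. This gave 85 of 32285 genes: 38 of complex I, 4 of complex II, 8 of complex III, 18 of complex IV and 17 of complex V. The 13 protein-coding genes of mitochondrial DNA, whose symbols begin with mt-, were measured beside them. Droplet single-cell libraries were made from the adventitia of mouse aortas, the connective tissue sheath around the muscular wall. The Vehicle mice received saline, the AngII mice received the pressor hormone angiotensin II, and the AngII_VWR mice received the same hormone and had access to a running wheel. Each group was 3 mice and 1 library, so no group had a second library. The labels used here gave no strain, age, sex, dose or length of treatment, and did not say how the 3 mice of a group were combined.

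The respiratory chain sits in the inner mitochondrial membrane. Complexes I and II pass electrons from NADH and succinate to a quinone, complex III passes them to cytochrome c and complex IV to oxygen, and complex V, the ATP synthase, uses the proton gradient that complexes I, III and IV build. Complexes I, III, IV and V are assembled from products of both genomes, whereas all subunits of complex II are nuclear-encoded. Several subunits of complex IV exist as a ubiquitous form and a form restricted to muscle, lung or testis.

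The libraries held 15093 (Vehicle), 10515 (AngII) and 19633 (AngII_VWR) cell barcodes, of which 12324, 9115 and 16125 were kept, with a median of 9430.5, 13154 and 4472 UMIs per cell. A UMI marks 1 captured mRNA molecule at its 3′ end, so counts were not divided by transcript length. Between 44 and 80 barcodes were shared by any pair of libraries. Cells with at least 1% of UMIs from Col1a1, Col1a2, Dcn and Lum formed a fibroblast class (6545, 6081 and 10913 cells), and cells with at least 0.3% from C1qa, C1qb and C1qc a macrophage class (2537, 1998 and 3221 cells). The remaining 3177, 1022 and 1915 cells are called the rest, and 65, 14 and 76 cells that passed both cuts were set aside. A class is a range of a score rather than a cell type: 1622, 468 and 1555 cells of the fibroblast class lay within 1.5 times of the cut, against 48, 25 and 124 of the macrophage class. The 8 fibroblast markers summed to 43405, 59872 and 46547 UMIs per 1000000 UMIs of the class (CPM) in the fibroblast class and to 889, 890 and 2290 CPM in the macrophage class. The 8 macrophage markers summed to 30640, 32990 and 26971 CPM in the macrophage class and to 194, 192 and 467 CPM in the fibroblast class. The rest was mixed, and haemoglobin and Alas2 UMIs alone made up 60008, 14847 and 9009 CPM of it.

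All 85 members were located in GENCODE M21 (GRCm38) and lay on 19 chromosomes, 3 of them on X. RefSeq promoter windows, 250 bases before to 50 bases after a start site (GRCm38.p6), were at hand for 67 members. Both strands of each window were searched for letters known as binding motifs of factors that control respiratory chain genes. The palindrome of nuclear respiratory factor 1, whose letters are the capitals in the windows below, was found in 5 of 67 windows (7.46%) against 0.977% of 27025 genes. CCGGAAG, the core bound by ETS factors such as the GA-binding protein, was found in 16 (23.9%) against 9.12%. AAGATGGC, a core of YY1 sites, was found in 8 (11.9%) against 2.88%. At least 1 of these was present in 27 members (40.3%) against 12.3% of all genes. The upstream windows of 3 members that the results below turn on are shown 5′ to 3′ on the strand of the gene, with matches in capitals. Ndufa11 was among the members highest in fibroblasts, Cox5a among those highest in macrophages, and Cox6a1 was the lowest member above 50 CPM in AngII against Vehicle in both classes.
Ndufa11, chr17:56717512-56717761, plus strand: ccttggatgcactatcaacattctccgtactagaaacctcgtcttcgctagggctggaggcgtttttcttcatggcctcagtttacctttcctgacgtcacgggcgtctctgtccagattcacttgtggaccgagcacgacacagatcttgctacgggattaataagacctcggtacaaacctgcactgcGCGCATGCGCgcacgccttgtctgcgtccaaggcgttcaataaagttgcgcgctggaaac
Cox6a1, chr5:115348982-115349208, minus strand: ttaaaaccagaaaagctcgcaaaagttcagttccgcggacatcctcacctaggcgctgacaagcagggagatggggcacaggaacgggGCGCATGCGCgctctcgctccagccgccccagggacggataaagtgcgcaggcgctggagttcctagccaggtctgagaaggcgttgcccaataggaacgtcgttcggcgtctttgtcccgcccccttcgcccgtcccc
Cox5a, chr9:57520982-57521231, plus strand: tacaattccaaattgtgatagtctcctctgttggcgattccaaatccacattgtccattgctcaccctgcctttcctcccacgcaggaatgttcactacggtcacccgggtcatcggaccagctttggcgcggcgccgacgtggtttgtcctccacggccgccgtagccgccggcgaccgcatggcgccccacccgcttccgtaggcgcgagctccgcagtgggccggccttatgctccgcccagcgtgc
Ndufa11 and Cox6a1 carried the palindrome, which otherwise appeared in Uqcrc1, Atp5g2 and Atp5k. None of the 3 motifs matched in the Cox5a window, which says only that these letters were not in it. The Cox6a1 window was cut short where the GENCODE gene begins. Cox6a1 is also among the ETS matches counted above, with letters outside the stretch printed.

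Summed over the cells of a class, members took 1.13% to 1.49% of the UMIs in each class and library. The fibroblast class had 1.30%, 1.24% and 1.22% of its UMIs from them in Vehicle, AngII and AngII_VWR. In the macrophage class the shares were 1.13%, 1.17% and 1.18%, and in the rest 1.24%, 1.49% and 1.30%. The shares of the mt- genes were wider apart, at 1.82%, 2.57% and 2.44% in fibroblasts, 1.91%, 2.91% and 2.85% in macrophages and 2.74%, 2.88% and 2.52% in the rest. Sets of this size carry little counting error (95% Poisson interval of the Vehicle fibroblast sum 12951 to 13003 CPM), and no interval given here covers differences between mice or preparations.

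Complex I gave the largest nuclear sum, as it has the most members: 4778, 4580 and 4516 CPM in fibroblasts of Vehicle, AngII and AngII_VWR and 3652, 3752 and 3840 CPM in macrophages. Complex V followed with 3886, 3761 and 3591 CPM in fibroblasts and 3278, 3478 and 3387 CPM in macrophages. Complex IV was the one with a higher sum in macrophages in each library (3085, 3092 and 3137 CPM against 2896, 2728 and 2769 CPM) besides complex II, the smallest (284, 291 and 281 CPM against 269, 244 and 221 CPM). The sums of complex III lay between 1042 and 1149 CPM in both classes. From mitochondrial DNA, the 3 subunits of complex IV gave 8102, 11685 and 11003 CPM in fibroblasts and 9636, 15076 and 14303 CPM in macrophages, 2.80 to 4.28 and 3.12 to 4.88 times the nuclear sum of that complex. For complex I the mt- sum was 0.866 to 1.23 times the nuclear sum in fibroblasts and 1.22 to 1.60 times in macrophages.

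**Figure D1:**
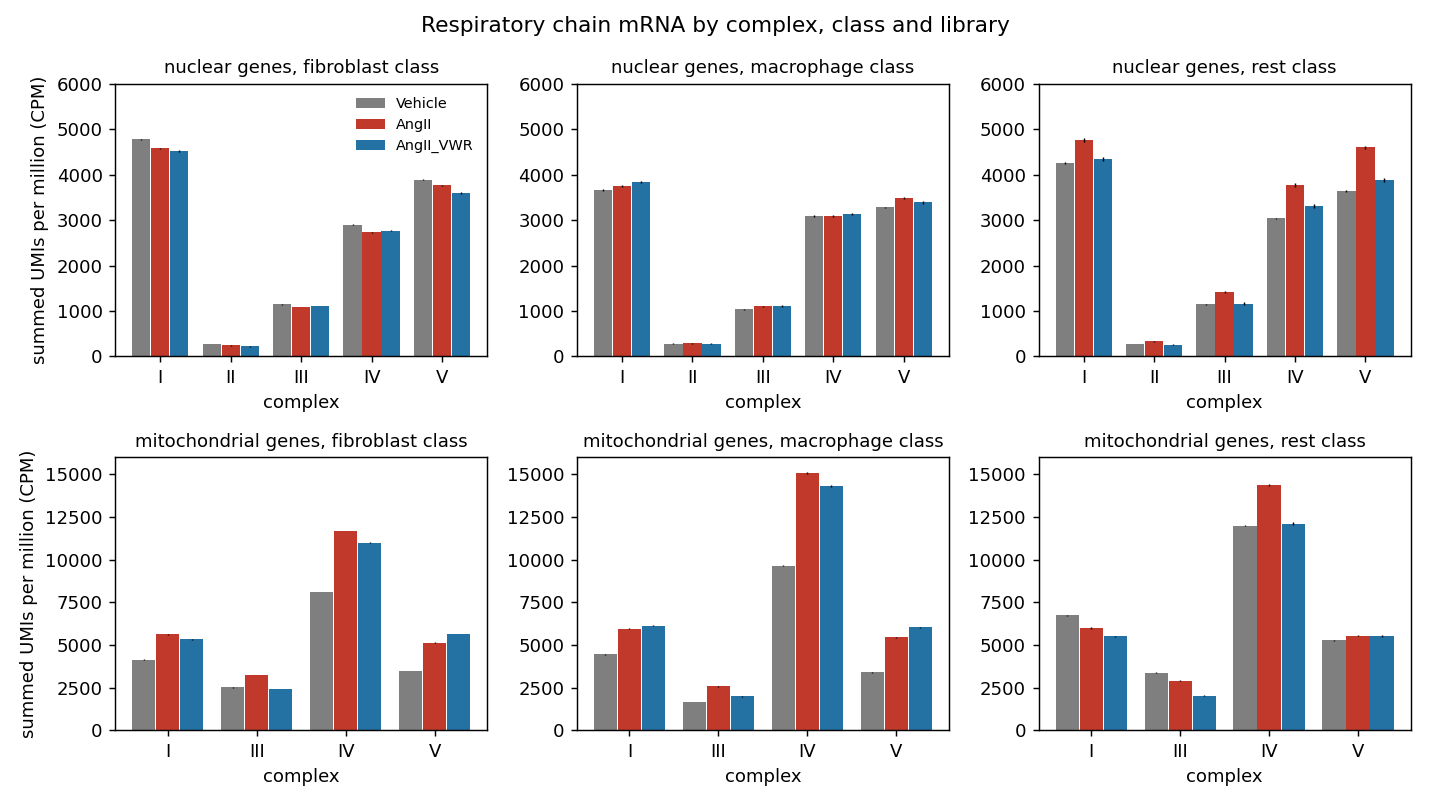
Summed CPM (vertical axes, from 0) of the nuclear members (upper row) and the mt- genes (lower row, another scale) of each complex, in 3 classes (columns) and 3 libraries (bar colours), with 95% Poisson intervals that cover counting error only. In fibroblasts and macrophages the nuclear bars of a complex are close in the 3 libraries. The mt- bars of these classes are lowest in Vehicle, as for complex IV at 8102 and 9636 CPM, except complex III of fibroblasts, which is lowest in AngII_VWR.

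Core subunits ranged widely in level. Ndufs1, an iron-sulfur subunit of the arm of complex I that oxidises NADH, was at 27.7, 24.8 and 26.6 CPM in fibroblasts and 21.5, 24.4 and 27.8 CPM in macrophages. Its values overlapped between the classes. Sdha, the flavoprotein of complex II, was at 75.5, 73.1 and 71.6 CPM in fibroblasts and 76.3, 84.9 and 82.9 CPM in macrophages. Uqcrc1, a core protein of complex III, was at 54.9, 52.9 and 47.4 CPM and 52.0, 59.2 and 58.4 CPM, and Uqcrfs1, its Rieske iron-sulfur protein, at 71.1, 60.8 and 48.2 CPM and 59.6, 68.9 and 55.3 CPM. Cox4i1, a large nuclear subunit of complex IV, was the highest member in both classes, at 599, 559 and 546 CPM and 619, 604 and 594 CPM. Atp5a1 and Atp5b form the head of the ATP synthase that makes ATP. Atp5a1 was at 166, 176 and 202 CPM in fibroblasts and 185, 209 and 239 CPM in macrophages, and Atp5b at 259, 242 and 252 CPM and 252, 257 and 276 CPM. Many members have near-identical processed pseudogenes, and reads that fit several places may have been dropped, so a level can be too low by an unknown amount.

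The fibroblast and macrophage classes, which were cut on genes outside the set, were compared over the 3 libraries with the library as a block (edgeR's quasi-likelihood test). The spread in this test also holds the treatment, since each library was another group, and the labels name no separate cultures or animals behind it. Of 83 members tested, 21 were higher in fibroblasts and 10 in macrophages, with Benjamini-Hochberg adjusted p under 0.05 over 16565 genes. Of all genes tested, 34.9% were higher in fibroblasts and 31.2% in macrophages, so both shares of members were below the background. The median log2 fold change was 0.01 over the members and 0.05 over all genes. The counts were 10 and 4 without AngII, 13 and 6 without AngII_VWR and 11 and 5 without Vehicle, and DESeq2 gave 16 and 13.

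The calls were also counted by complex, beside 34.9% of all genes higher in fibroblasts and 31.2% in macrophages. For complex I, 17 of 38 members were higher in fibroblasts and 3 in macrophages. For complex II, 2 of 4 were higher in macrophages, and for complex III none of 8 passed in either direction, all with adjusted p of at least 0.13 by edgeR. For complex IV, 1 of 16 was higher in fibroblasts and 5 in macrophages, and for complex V 3 of 17 were higher in fibroblasts. Beside those shares, the count of complex I in fibroblasts was above the background and that of complex IV in macrophages was near it. A test of the difference between complexes was not run. Of the 13 mt- genes, 1 was higher in fibroblasts and 2 in macrophages.

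**Figure D2:**
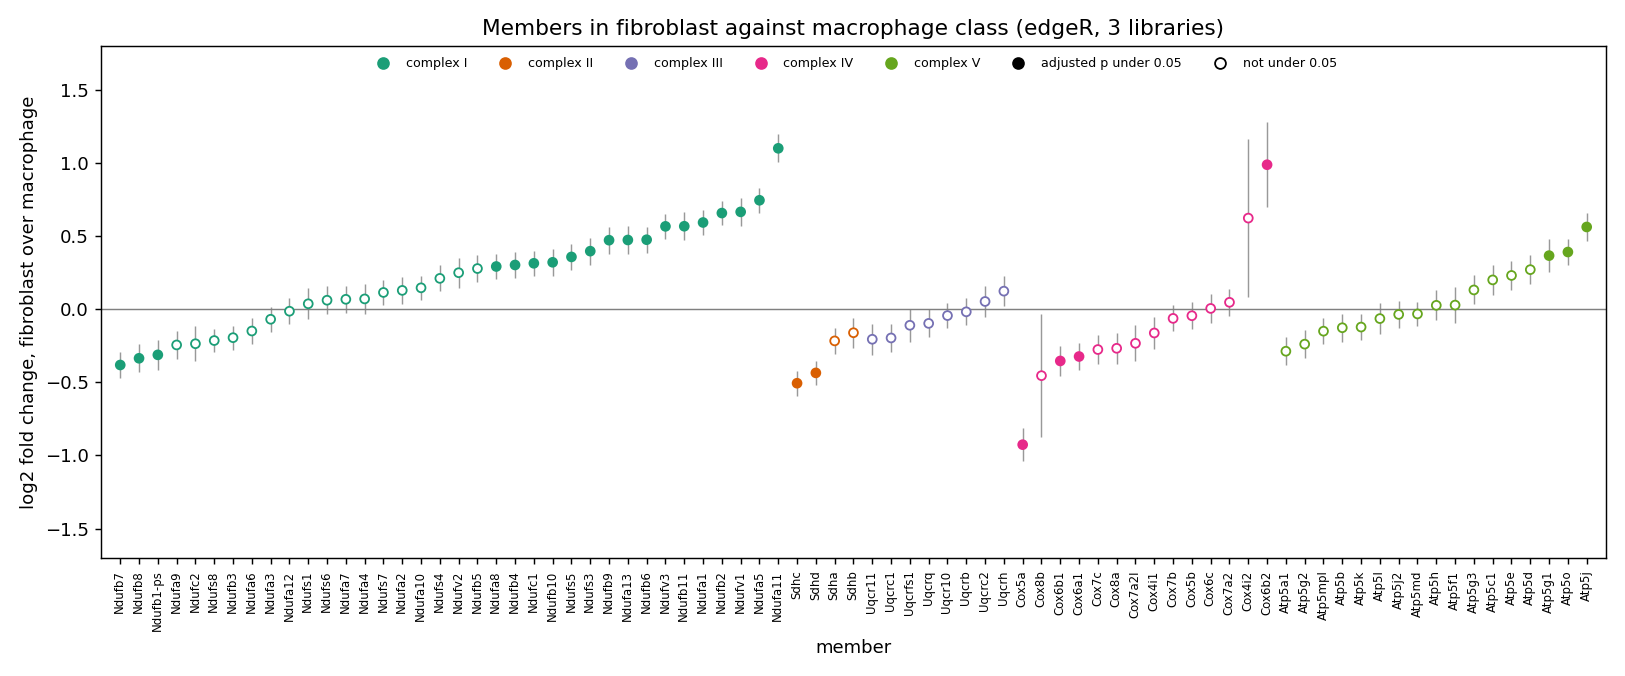
Log2 fold change between fibroblast and macrophage class for each member (horizontal axis, by complex), with its standard error as a bar, over 3 libraries; filled points had an adjusted p under 0.05 in edgeR. Ndufa4l2, Cox6a2 and Cox7a1, at 4.72, -4.52 and -2.78, are beyond the axis and left out, 1 member of complex I is not reported, and most filled points above 0 belong to complex I.

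Ndufa4l2 stood apart in complex I. It is a paralog of Ndufa4, a subunit first assigned to complex I and later placed in complex IV, and is known as a gene induced by low oxygen. It was at 96.2, 95.05 and 91.7 CPM in fibroblasts of Vehicle, AngII and AngII_VWR, and at 2.67, 1.92 and 7.35 CPM in macrophages. The classes did not overlap, and the log2 fold change was 4.72 with SE 0.44 (edgeR, adjusted p = 0.0013). A UMI of the gene was found in 39.4%, 43.2% and 28.0% of fibroblasts and in 3.23%, 2.90% and 3.88% of macrophages, whose median depth was higher in each library (12871, 15173.5 and 4878 UMIs against 9494, 12993 and 4590). The macrophage shares were taken as background and not read as expression. In the rest the shares were 4.22%, 4.79% and 5.38%, and a single cell held up to 7, 10 and 7 UMIs. In AngII 51.8% of the 83 UMIs of the rest lay in 10 cells, so the rest was not taken as background alone. Ndufa4 itself did not pass, at 309, 277 and 433 CPM in fibroblasts and 263, 260 and 404 CPM in macrophages (edgeR, adjusted p = 0.57). The gene of Ndufa4l2 is at chr10:127514967-127517154 on the plus strand (GRCm38).

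Other subunits of complex I were higher in fibroblasts by less. Ndufa11, of the membrane arm, was at 198, 168 and 164 CPM in fibroblasts against 80.8, 71.1 and 83.5 CPM in macrophages, a log2 fold change of 1.10 with SE 0.10 (edgeR, adjusted p = 0.0011). Ndufa5, of the peripheral arm, was at 101, 108 and 86.1 CPM against 56.2, 57.7 and 53.1 CPM, and Ndufv1, which binds NADH and flavin, at 66.5, 61.9 and 55.8 CPM against 35.2, 36.1 and 39.3 CPM. The lowest fibroblast value lay above the highest macrophage value for each. Their log2 fold changes were 0.74 and 0.67. The other members of complex I with a call in fibroblasts had log2 fold changes of 0.29 to 0.66. The 3 with a call in macrophages, Ndufb7, Ndufb8 and Ndufb1-ps, which were named here because they are so few, had log2 fold changes of -0.38, -0.34 and -0.31. In the files Ndufb1-ps is a symbol of its own, annotated in GENCODE as a long non-coding RNA.

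In complex II the membrane anchors Sdhc and Sdhd were higher in macrophages. Sdhc was at 47.1, 43.7 and 50.6 CPM in fibroblasts and 59.4, 63.0 and 69.0 CPM in macrophages, a log2 fold change of -0.51 (edgeR, adjusted p = 0.0073). Sdhd was at 45.9, 43.6 and 40.0 CPM and 54.6, 56.5 and 55.5 CPM, a log2 fold change of -0.44 (edgeR, adjusted p = 0.0091), with an adjusted p of 0.054 without AngII and 0.11 in cells with 4000 to 8000 UMIs. Sdhb, the iron-sulfur subunit, did not pass (adjusted p = 0.22), nor did Sdha (adjusted p = 0.085 by edgeR). In the same window of depth Sdha had a log2 fold change of -0.55 and an adjusted p of 0.038.

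Cox5a, which encodes a matrix-facing subunit of complex IV, was the ubiquitous member furthest towards macrophages. It was at 126, 110 and 153 CPM in fibroblasts and 200, 223 and 282 CPM in macrophages, without overlap. The log2 fold change was -0.93 with SE 0.11 (edgeR, adjusted p = 0.0027), and -0.53 with adjusted p = 0.056 in cells with 4000 to 8000 UMIs. In complex V, Atp5j, Atp5o and Atp5g1, parts of the stalk and of the proton ring, were higher in fibroblasts with log2 fold changes of 0.56, 0.39 and 0.37. Atp5g1, Atp5g2 and Atp5g3 encode the same mature ring subunit. Atp5g1 was at 234, 197 and 229 CPM in fibroblasts and 148, 156 and 185 CPM in macrophages, whereas Atp5g2 was at 249, 245 and 216 CPM and 269, 284 and 246 CPM, and Atp5g3 at 148, 124 and 152 CPM and 112, 114 and 142 CPM. Atp5g2 and Atp5g3 did not pass (edgeR, adjusted p = 0.090 and 0.30).

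Among the isoform pairs of complex IV, the ubiquitous form made up nearly all UMIs in both classes. Cox6a2 and Cox7a1 are the forms known from heart and skeletal muscle, and both were low but higher in macrophages. Cox6a2 had 7, 7 and 6 UMIs in all fibroblasts of Vehicle, AngII and AngII_VWR (0.0958, 0.0850 and 0.103 CPM) and 131, 67 and 14 UMIs in macrophages (4.02, 2.14 and 0.803 CPM). Vehicle was the highest and AngII_VWR the lowest macrophage value, and the log2 fold change was -4.52 with SE 0.58 (edgeR, adjusted p = 0.0031). Cox7a1 was at 0.917, 1.12 and 0.582 CPM in fibroblasts and 6.74, 5.44 and 4.65 CPM in macrophages, a log2 fold change of -2.78 with SE 0.24 (edgeR, adjusted p = 0.0011). A UMI of Cox7a1 was found in 6.94%, 7.71% and 2.36% of macrophages and in 1.02%, 1.496% and 0.302% of fibroblasts, which were shallower. The cardiac and skeletal muscle markers summed to 0.307, 0.704 and 1.32 CPM in macrophages, with 4, 2 and 1 of the 7 at 0.

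The ubiquitous partners were far higher. Cox6a1 was at 165, 121 and 134 CPM in fibroblasts and 195, 146 and 159 CPM in macrophages. Cox7a2 was at 202, 189 and 202 CPM and 178, 175 and 194 CPM, and Cox7a2l, whose product joins complexes III and IV into supercomplexes, at 256, 233 and 249 CPM and 269, 299 and 260 CPM. Cox6b2, known from testis, was at 15.6, 14.95 and 17.8 CPM in fibroblasts and 12.0, 6.21 and 5.97 CPM in macrophages, against 222, 216 and 210 CPM and 258, 278 and 253 CPM for Cox6b1. Its log2 fold change of 0.99 (edgeR, adjusted p = 0.037) was lost when a library was left out, with an adjusted p of 0.14 without AngII and 0.094 without AngII_VWR, but not without Vehicle (0.011). In Vehicle a UMI of Cox6b2 was found in 12.1% of macrophages and 12.1% of fibroblasts, which were shallower.

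Cox4i2, a form of Cox4i1 known from lung and smooth muscle, was at 0.328, 0.729 and 1.63 CPM in fibroblasts and 0.399, 0.160 and 1.21 CPM in macrophages and did not pass (edgeR, adjusted p = 0.36). In the rest it was at 4.10, 2.04 and 3.47 CPM. In Vehicle, 114 of the 122 UMIs of the rest lay in 542 cells with at least 1% of UMIs from Acta2, Myh11, Tagln and Myl9, at 10.0 CPM (95% Poisson interval 8.26 to 12.0). In these smooth muscle-like cells Cox4i1 was at 849 CPM, and Ndufa4l2 at 1.76 CPM with 20 UMIs. Pericyte markers summed to 3816 CPM in the same cells. AngII and AngII_VWR held 16 and 42 such cells, too few by the limit of 50 set for these panels.

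Cox8b, the muscle and brown fat form of Cox8a, was most abundant in the rest of AngII, with 125 UMIs (12.2 CPM) against 76 (2.55 CPM) in Vehicle and 15 (1.68 CPM) in AngII_VWR. In AngII 67.2% of these UMIs lay in 10 cells and 26 in a single cell, and in Vehicle 98.7% lay in 10 cells. In fibroblasts Cox8b had 6, 129 and 34 UMIs, and in AngII these lay in 103 cells. The 7 adipocyte markers summed to 627, 5675 and 814 CPM in the rest, though not every one was highest in AngII. Fabp4 was the largest part of each sum, at 316, 4705 and 664 CPM. In AngII these markers reached 33897 CPM in the endothelial-like cells described below, so the sum is not a measure of adipocyte RNA alone. Ucp1, the uncoupling protein of brown fat, was at 0.235, 11.1 and 2.80 CPM and Adipoq at 18.9, 159 and 10.1 CPM, whereas Cidea, another gene of brown fat, was at 10.8, 4.97 and 2.69 CPM. Their part in the Cox8b values was not tested. Cox8a was at 385, 503 and 474 CPM in the rest. Cox8c, known from testis, had no UMI in any class or library, which allows up to 0.0364 CPM in AngII fibroblasts, taking 3 counts as the limit of a count of 0. Cox7b2 had at most 4 UMIs in a class, against 135 to 199 CPM for Cox7b.

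**Figure D3:**
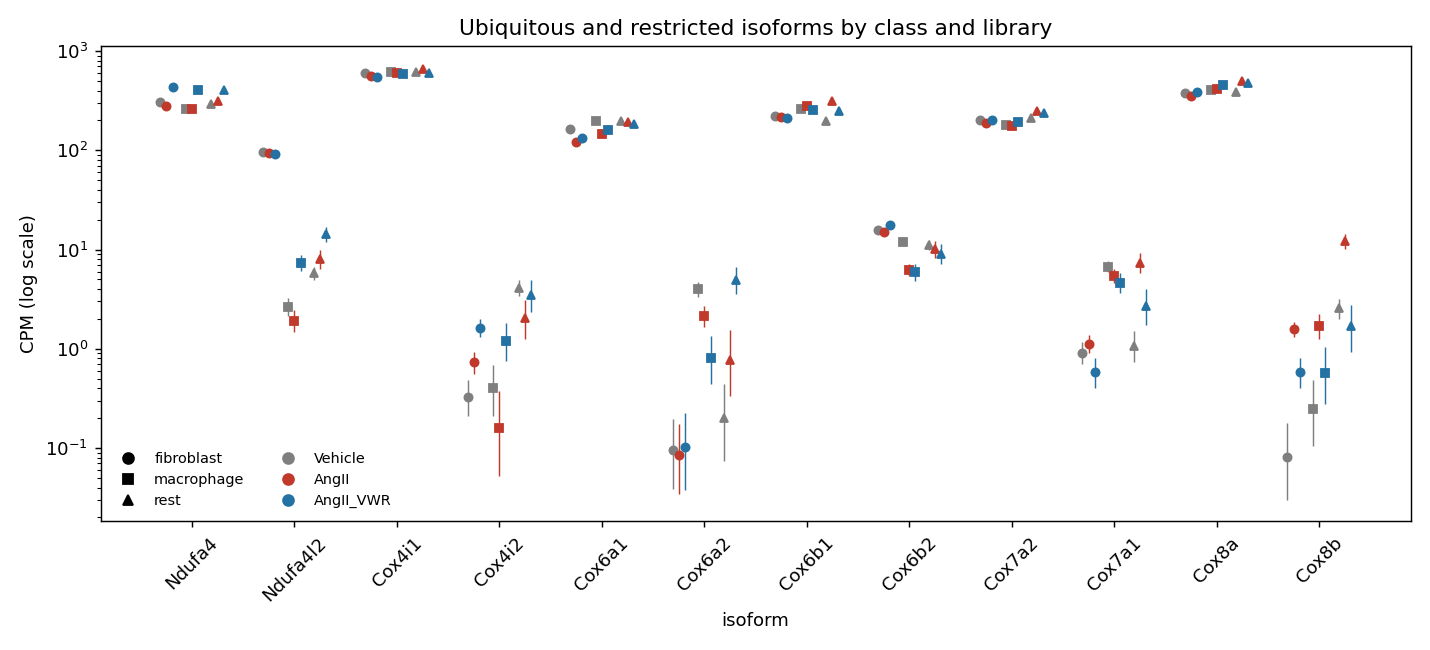
Level in CPM (log axis) of ubiquitous and restricted isoforms, by class (marker shape) and library (colour), with 95% Poisson intervals that cover counting error only; Cox7a2l, Cox7b, Cox7b2, Cox8c and the Atp5g genes are not drawn. Ndufa4l2 separates fibroblasts (92 to 96 CPM) from macrophages (2 to 7 CPM), and Cox6a2 and Cox7a1 lie higher in macrophages than in fibroblasts.

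The rest class ranged more widely. Per cell, the median member share was 0.509% in Vehicle, 1.08% in AngII and 1.17% in AngII_VWR, against 1.33%, 1.26% and 1.22% in fibroblasts. In Vehicle, the smooth muscle-like cells had 1.65% of UMIs from members and 4.16% from mt- genes, the highest of the panels measured there. The 179 erythroid-like cells of Vehicle, with at least 10% haemoglobin UMIs, had 0.135% and 0.207%. T-like cells numbered 167, 85 and 106 and had 1.38%, 1.35% and 1.36% from members, and 2.17%, 3.12% and 3.33% from mt- genes. The 117 endothelial-like cells of AngII had 1.63% and 2.75%, with adipocyte markers at 33897 CPM. Fabp4 was the highest of these markers over the AngII rest (4705 CPM), so the sum does not by itself mark these cells as mixed with adipocytes. The 128 neutrophil-like cells of AngII_VWR had 1.28% and 0.538%. Most cells of the rest passed no panel: 2248, 778 and 1555, at 1.04%, 1.51% and 1.30% from members. The makeup of the rest differed between libraries in these counts, so the ratios of the rest given next cannot be told apart from it.

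Against Vehicle, the AngII library had nearly the same levels of members and higher mt- levels in the named classes. The nuclear sum in fibroblasts was 12977 CPM in Vehicle and 12404 CPM in AngII, a ratio of 0.956 (95% interval 0.953 to 0.959), and in macrophages 11341 and 11714 CPM, a ratio of 1.03 (1.028 to 1.038). The mt- sum was 18217 and 25670 CPM in fibroblasts, a ratio of 1.41, and 19120 and 29063 CPM in macrophages, a ratio of 1.52. With 1 library a group no test of the treatment was possible, so these values compare libraries. Malat1 and Neat1, RNAs kept in the nucleus, made up 1.67% and 1.46% of UMIs in fibroblasts of the same libraries and 2.34% and 1.34% in macrophages, and their part in the mt- ratios was not tested.

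Single members spread little around these sums. In fibroblasts 79 of 85 members were measured, with at least 5 CPM in either library and 10 UMIs over both, and their median log2 ratio of CPM + 1 was -0.07, the same as over 10449 genes (-0.07). Of these members 18 were higher and 61 lower, beside 38.0% and 62.0% of all genes. None was at least 1.5-fold higher and none 1.5-fold lower, beside 6.78% and 4.9% of all genes. In macrophages the median was 0.04, against -0.01 over 9820 genes. Here 53 members were higher and 26 lower, beside 48.2% and 51.8% of all genes, with none of 79 members 1.5-fold higher and 1 lower, beside 6.8% and 6.29%. The median of the fibroblast members was 0.24 in cells with 4000 to 8000 UMIs alone, so its direction depended on depth.

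Cox6a1, a nuclear subunit of complex IV, was the lowest of the abundant members in both classes. It was at 165 and 121 CPM in fibroblasts of Vehicle and AngII, a ratio of 0.731 (0.712 to 0.751), and at 195 and 146 CPM in macrophages, a ratio of 0.749 (0.721 to 0.778). In the rest it was at 199 and 195 CPM. In fibroblasts Sdhb (101 and 83.7 CPM), Atp5g3 (148 and 124 CPM) and Atp5g1 (234 and 197 CPM) came next, with ratios of 0.831, 0.839 and 0.841. At the other end were Ndufs6, a zinc-binding subunit of complex I (65.5 and 79.7 CPM), with a ratio of 1.22, and Ndufa13 (263 and 291 CPM), Ndufa5 and Cox6c, with ratios of 1.10, 1.07 and 1.07.

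In macrophages the member past 1.5-fold was Cox6b2, at 12.0 CPM in Vehicle and 6.21 CPM in AngII, a ratio of 0.515 (0.432 to 0.614). Ndufa3, Ndufa11 and Ndufs7, all of complex I, followed Cox6a1 with ratios of 0.849, 0.879 and 0.894. Ndufc2 was at 127 and 163 CPM, a ratio of 1.28, and Atp5c1, the central stalk of the ATP synthase, at 152 and 185 CPM, a ratio of 1.21. Atp5f1 and Ndufa6 had ratios of 1.20 and 1.17. Relative to the median gene, Cox6a1, Ndufa11 and Ndufs7 were low and 29 members were high in all 3 classes, of 78 measured in each. The share of all genes on 1 side in all 3 classes was not counted, so these counts are not read as a trait of the members.

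The mt- genes differed among themselves. The gene mt-Nd3, a subunit of complex I, was at 168, 349 and 481 CPM in fibroblasts of Vehicle, AngII and AngII_VWR and 170, 381 and 553 CPM in macrophages, log2 ratios of 1.05 and 1.16 in AngII. The gene mt-Nd4l was at 241, 175 and 174 CPM and 175, 121 and 106 CPM, log2 ratios of -0.46 and -0.53. So the gene with the highest and the gene with the lowest ratio both belong to complex I. In fibroblasts 11 of 13 mt- genes were higher in AngII, beside 38.0% of all genes, and 3 of them by at least 1.5-fold. In macrophages 10 of 13 were higher, beside 48.2%, and 5 by at least 1.5-fold. The ratio of the mt- to the nuclear sum was 1.404, 2.07 and 2.00 in fibroblasts and 1.69, 2.48 and 2.42 in macrophages. In the rest it was 2.22, 1.94 and 1.94, highest in Vehicle.

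**Figure D4:**
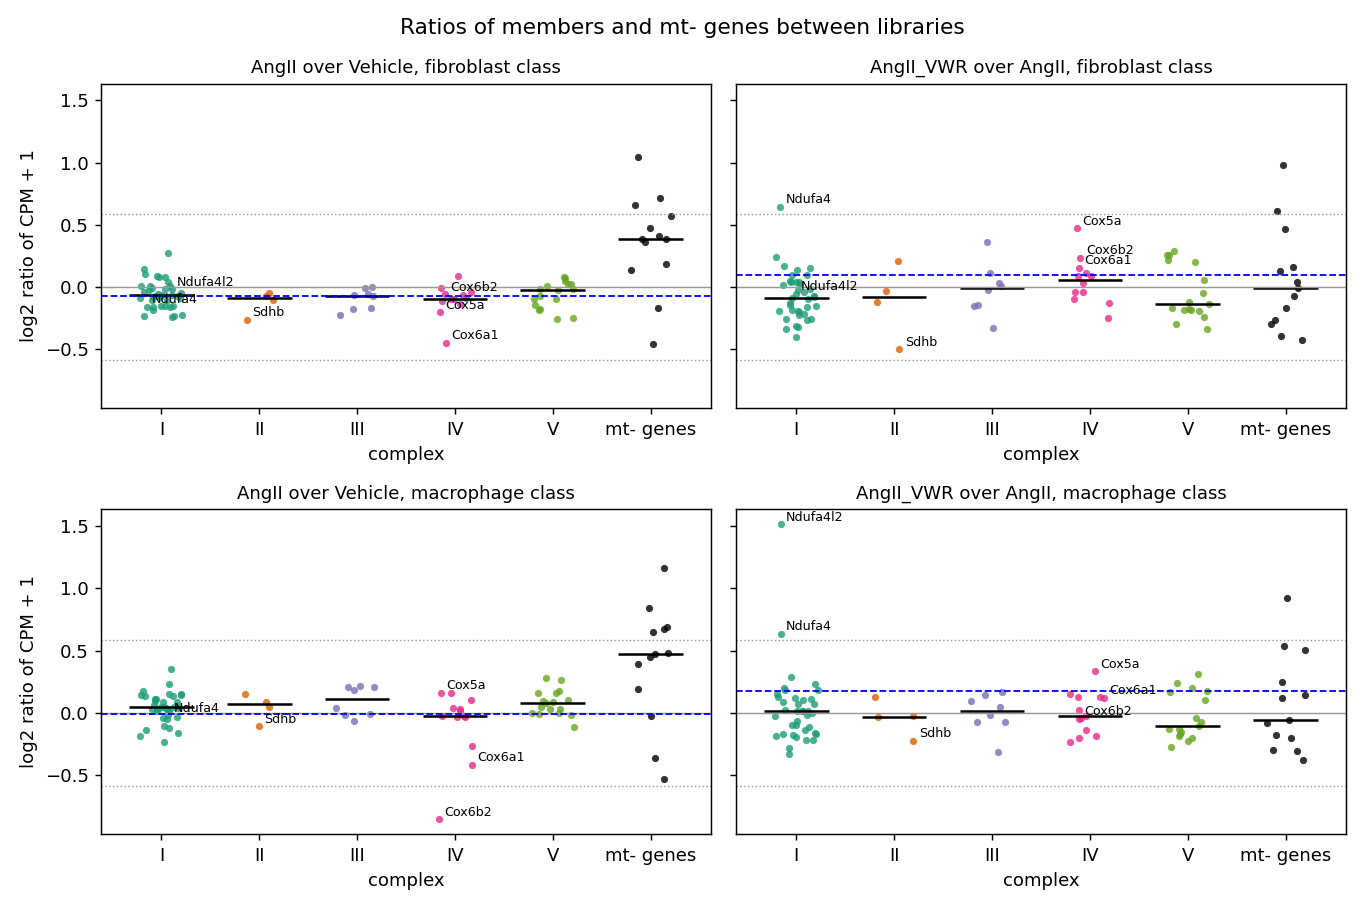
Log2 ratios of CPM + 1 between libraries for each measured member, by complex, and each mt- gene (points), in fibroblasts and macrophages (rows) and both pairs of libraries (columns). Black bars are medians, the blue dashed line is the median of all measured genes and dotted lines mark 1.5-fold; the mt- genes lie higher than the complexes for AngII over Vehicle, and Ndufa4 is past 1.5-fold in both classes for AngII_VWR over AngII.

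In the rest, members were higher in AngII than in Vehicle, with sums of 12358.5 and 14890 CPM, a ratio of 1.20. The median log2 ratio was 0.25 against 0.05 over all genes. Of 81 members 72 were higher and 9 lower, beside 54.4% and 45.6%, and 8 of 81 members were 1.5-fold higher and none lower, beside 20.6% and 14.1% of 12118 genes. Of 92 cytosolic ribosomal protein genes measured there, 84 were higher as well. Cox5a (163 and 297 CPM) was the highest of the abundant members with a ratio of 1.83, followed by Atp5o (1.63), Sdhd (1.63) and Cox6b1 (1.59). Ndufa11 was lowest at 160 and 114 CPM, a ratio of 0.717, and Ndufb3, Ndufv3 and Sdhc had ratios of 0.810, 0.854 and 0.877. Cox7a1 and Cox8b, the muscle and brown fat forms, were also past 1.5-fold, as were Uqcrfs1 and Uqcrq.

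AngII_VWR was then set against AngII, so both libraries come from mice given the hormone and differ in the wheel. It shares the AngII library with the previous one, and its library was shallower and counted with a later Cell Ranger version, which cannot be told apart from the treatment. The nuclear sums were 12404 and 12208 CPM in fibroblasts, a ratio of 0.984, and 11714 and 11754 CPM in macrophages, a ratio of 1.00. The mt- sums had ratios of 0.950 and 0.979. In the rest the ratios were 0.871 for members and 0.873 for mt- genes.

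The median gene was higher in AngII_VWR, by 0.10 on the log2 scale in fibroblasts and 0.17 in macrophages, so single genes are read against it. The median member was at -0.05 in fibroblasts, where 31 members were higher and 48 lower beside 62.3% and 37.7% of all genes. In macrophages it was at -0.02, with 38 higher and 42 lower beside 68.5% and 31.5%. In fibroblasts 61 of 79 members lay below the median gene and in macrophages 69 of 80, and 53 of the 79 measured in all classes lay below it in each of them. The share of all genes below it in each class at once was not counted, so the 53 have no background beside them. Most cytosolic ribosomal protein genes, another set of short abundant mRNAs, also lay below the median gene. These were 54 of 90 in fibroblasts and 79 of 92 in macrophages. Relative to the median gene, their median was at -0.07 in fibroblasts, against -0.15 for the members. In macrophages the medians were -0.25 and -0.20. So the ribosomal genes lay as far below the median gene as the members in macrophages, but not in fibroblasts. In fibroblasts 1 member was 1.5-fold higher and none lower, beside 7.07% and 4.88% of 10589 genes. In macrophages 2 were higher and none lower, beside 14.3% and 5.03% of 10188 genes. Complex V had the lowest median in both classes (-0.14 and -0.10).

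Sdhb, the iron-sulfur subunit of complex II, was the lowest member in fibroblasts, at 101, 83.7 and 58.9 CPM in Vehicle, AngII and AngII_VWR. Its ratio between the last 2 was 0.704 (0.675 to 0.733), and in macrophages it was at 93.5, 86.8 and 74.1 CPM, a ratio of 0.854. Vehicle was the highest and AngII_VWR the lowest library in both classes. Ndufa3 (64.0 against 84.8 CPM), Ndufv2 (77.5 against 98.0 CPM) and Atp5j (278 against 350 CPM) followed in fibroblasts, with ratios of 0.755, 0.791 and 0.793. In macrophages the lowest were Ndufa3, Uqcrfs1, Ndufs8 and Atp5f1, with ratios of 0.795, 0.802, 0.821 and 0.827. Cox5a was higher in AngII_VWR, with ratios of 1.39 in fibroblasts and 1.26 in macrophages, and Atp5g3 with 1.23 and 1.24. In cells with 4000 to 8000 UMIs the log2 ratio of Cox5a was -0.24 in fibroblasts, against 0.47 over all cells, and 0.51 in macrophages. Uqcr11 (121 and 156 CPM) in fibroblasts and Ndufa8 (85.0 and 104 CPM) in macrophages had ratios of 1.29 and 1.22.

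Ndufa4 was past 1.5-fold in both classes. Its levels in fibroblasts of Vehicle, AngII and AngII_VWR were 309, 277 and 433 CPM, a ratio of 1.57 (1.54 to 1.59) between the last 2. In macrophages it was at 263, 260 and 404 CPM, a ratio of 1.56 (1.51 to 1.61), and in the rest at 295, 315 and 404 CPM, a ratio of 1.28 (1.22 to 1.34). AngII_VWR was the highest library in each class, and Ndufa4, Ndufa8 and Atp5g1 were the members above the median gene in all 3. In T-like cells Ndufa4 was at 257, 347 and 517 CPM. Ndufa4l2 was the other member past 1.5-fold in macrophages, at 1.92 and 7.35 CPM (ratio 3.82, 2.79 to 5.29), while in the fibroblasts of the same libraries it was at 95.05 and 91.7 CPM. Fibroblast markers in those macrophages summed to 890 and 2290 CPM, and their part in this ratio was not tested.

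The Ndufa4 value in fibroblasts depended on the depth of the cells. Among cells with 4000 to 8000 UMIs it was at 372, 452 and 397 CPM in Vehicle, AngII and AngII_VWR, a log2 ratio of -0.19 between the last 2 against 0.64 over all cells. Among cells with 8000 to 16000 UMIs it was at 291, 261 and 390 CPM, and below 2000 UMIs at 881, 901 and 889 CPM. So the higher level in AngII_VWR was seen in the deeper fibroblasts and not in the shallow ones. In macrophages AngII_VWR was above AngII in each depth range, at 402 against 253 CPM with 4000 to 8000 UMIs, where AngII held 94 cells, and 416 against 254 CPM with 8000 to 16000. The member share as a whole was lower in deeper fibroblasts, from 2.17% below 2000 UMIs to 1.26% above 16000 in Vehicle, and in AngII from 2.59% to 1.16%. In fibroblasts with 4000 to 8000 UMIs the ratio of the member sums was 1.21 for AngII over Vehicle and 0.725 for AngII_VWR over AngII, and with each cell thinned to 2000 UMIs 1.00 and 0.895.

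**Figure D5:**
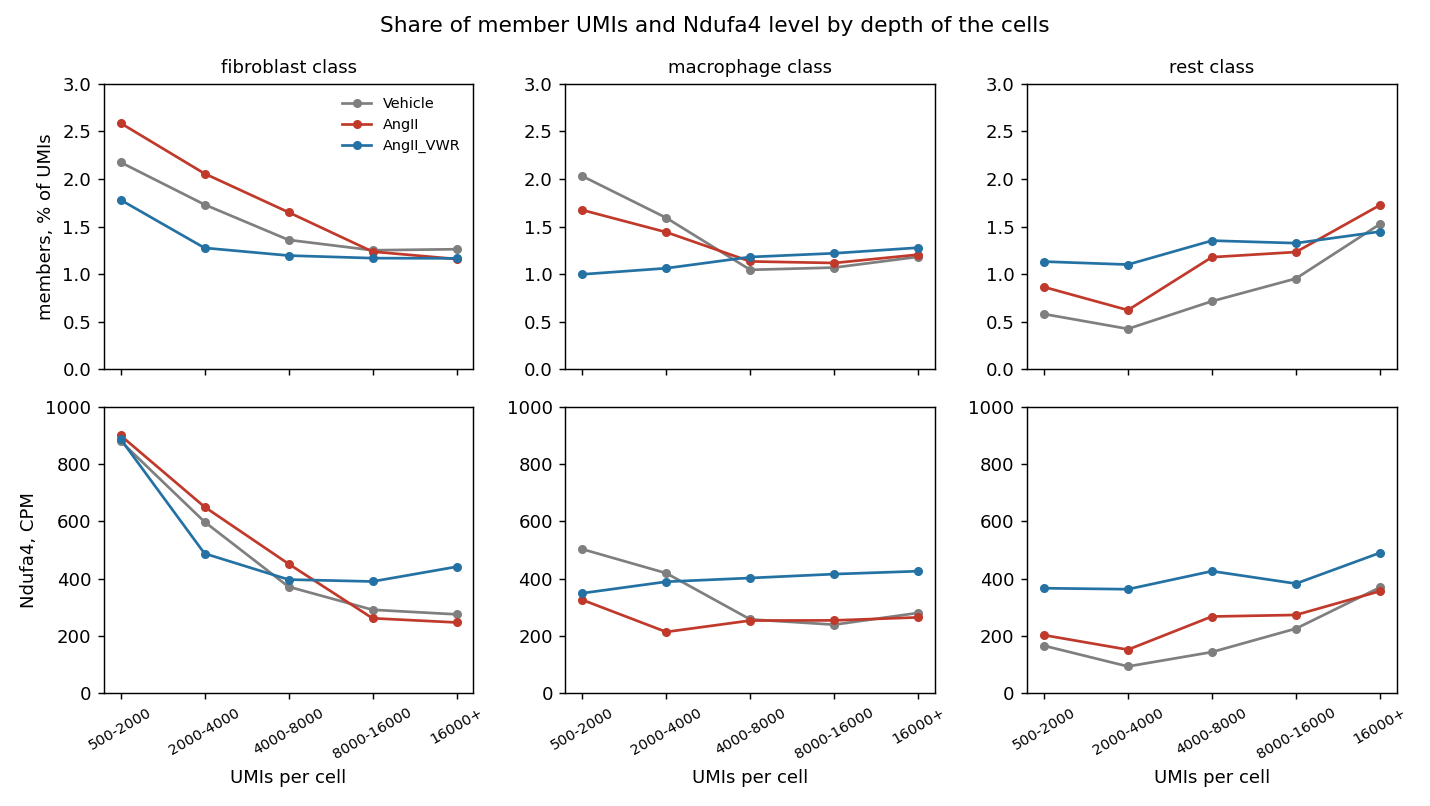
Member UMIs as % of all UMIs (upper row) and Ndufa4 in CPM (lower row), both from 0, by depth of the cells in UMIs (horizontal axis), for 3 classes (columns) and 3 libraries (colours). In fibroblasts both are lower at greater depth in Vehicle and AngII, and the Ndufa4 lines of AngII and AngII_VWR cross between 4000 and 16000 UMIs, whereas in macrophages AngII_VWR stays above AngII.

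In the rest, the median member was at -0.19 in AngII_VWR over AngII, against 0.02 over all genes. Here 13 members were higher and 68 lower, beside 51.8% and 48.2% of all genes. Of 81 members, 1 was 1.5-fold higher and 4 lower, beside 8.94% and 10.8% of 11999 genes. The higher one was Ndufa4l2, with only 83 UMIs in AngII and 128 in AngII_VWR, and the source of these was not tested. The lower ones were Uqcrfs1, Ndufv2, Cox7a1 and Cox8b. Uqcrfs1 was the lowest member above 50 CPM, at 119 CPM in AngII and 69.2 CPM in AngII_VWR, a ratio of 0.581, followed by Ndufv2 (0.649), Atp5o (0.680), which holds the stalk to the head of the ATP synthase, and Sdhb (0.684). At the upper end of the members above 50 CPM, Atp5g1, Ndufb1-ps and Atp5l followed Ndufa4, with ratios of 1.14, 1.11 and 1.10. With each cell thinned to 2000 UMIs the median was 0.09, so this direction turned with that setting. The ratio of the member sums, 0.871 over all cells, was 1.10 thinned and also 1.10 as a mean over cells. Depth and the weight given to each cell cannot be told apart in the thinned value.

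Other genes of the pathway were followed as fixed lists. Of 46 assembly factors, which build the complexes without staying in them, 45 were tested between the classes, and 19 were higher in fibroblasts and 8 in macrophages (edgeR's quasi-likelihood test), beside 34.9% and 31.2% of all genes. Uqcc2, for complex III, was at 174, 137 and 129 CPM in fibroblasts and 58.3, 57.7 and 66.05 CPM in macrophages. In AngII against Vehicle, none of 41 measured in fibroblasts was 1.5-fold higher and 1 was lower, beside 6.78% and 4.9% of all genes. In macrophages 1 of 39 was higher and 1 lower, beside 6.8% and 6.29%. Of 18 regulators of mitochondrial biogenesis and transcription, 2 were higher in fibroblasts and 6 in macrophages, the latter near the 31.2% of all genes and the former below the 34.9%. Ppargc1a, a coactivator of these genes, was low, at 1.23, 3.16 and 2.67 CPM in fibroblasts and 0.0920, 0.160 and 0.172 CPM in macrophages, and its relative Ppargc1b was at 0.657, 1.62 and 0.993 CPM and 9.23, 9.64 and 10.0 CPM. The classes did not overlap for either, and the directions were opposite.

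Single regulators also varied between libraries, and the examples were picked by their values. In fibroblasts 1 of 12 measured was 1.5-fold higher in AngII than in Vehicle and none lower, beside 6.78% and 4.9% of all genes. In AngII_VWR over AngII 2 were higher and 1 lower, beside 7.07% and 4.88%. In macrophages none of 13 passed in AngII over Vehicle, beside 6.8% and 6.29%. In AngII_VWR over AngII 2 were higher and none lower there, beside 14.3% and 5.03%. Gabpb1, a subunit of the GA-binding protein, was at 23.9, 39.0 and 16.4 CPM in fibroblasts of Vehicle, AngII and AngII_VWR and at 38.4, 42.4 and 33.2 CPM in macrophages. Polg2, a subunit of the mitochondrial DNA polymerase, was at 8.76, 9.28 and 86.9 CPM in fibroblasts and 14.4, 9.38 and 63.7 CPM in macrophages. In the rest it was at 20.7, 21.7 and 61.2 CPM, so AngII_VWR was far above both other libraries in each class. The later Cell Ranger version of that library cannot be told apart from the treatment. Tfam, which packages mitochondrial DNA, was at 13.7, 13.7 and 19.3 CPM in fibroblasts and 11.8, 10.9 and 17.7 CPM in macrophages. Among the carriers, Ucp2 was at 8.25, 7.81 and 15.1 CPM in fibroblasts and 708, 851 and 648 CPM in macrophages, and the ADP/ATP carrier genes Slc25a4 and Slc25a5 went opposite ways. Slc25a4 was at 472, 414 and 337 CPM in fibroblasts and 97.8, 96.5 and 94.6 CPM in macrophages, a log2 fold change of 2.00, and Slc25a5 at 103, 77.2 and 110 CPM and 216, 216 and 219 CPM, a log2 fold change of -1.26 (edgeR, adjusted p = 0.00063 and 0.0024). Of 78 mitochondrial ribosomal protein genes 25 were higher in fibroblasts and 5 in macrophages, and of 97 cytosolic ones tested 11 and 10. Beside the 34.9% and 31.2% of all genes, the first count was near the background and the other 3 were below it.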

How the data were processed

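Gene counts per cell barcode were deposited as 1 filtered 10x matrix per group, made by the authors with Cell Ranger 7.0.1 (Vehicle, AngII) or 7.1.0 (AngII_VWR), per the file headers, with mm10 per the submitters' processing notes. Whether intronic reads were counted is not given in the sources used here. Cells with under 300 genes or 500 UMIs, or over 10% mitochondrial UMIs, were dropped. The top Scrublet scores, 0.8% per 1000 cells, were removed as doublets, since its own threshold marked 248, 135 and 0 cells.

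UMIs were summed per class and library and scaled to CPM. Levels have exact 95% Poisson intervals and ratios exact conditional ones. Both cover counting error only, over library totals of 165977330 (Vehicle), 141570158 (AngII) and 105679209 (AngII_VWR) UMIs. A gene counted as measured with at least 5 CPM in either library and 10 UMIs over both, and log2 ratios used a pseudocount of 1. Classes were compared with edgeR 4.0.16 (glmQLFit and glmQLFTest, TMM, Benjamini-Hochberg adjustment) on the class sums, with the library as a block. DESeq2 1.42.0 was an alternative. The procedure was tested on simulated data. Python 3.11.15, scanpy 1.11.5, scipy 1.17.1 and R 4.3.3 were used. Other alternatives were the filters, the class cuts, thinning each cell to 2000 UMIs, cells with 4000 to 8000 UMIs, and leaving out each library.

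Genes named were the isoform sets, the core subunits (1 is not reported here), the 5 called members of largest change in each direction between the classes, and the 4 highest and 4 lowest members above 50 CPM in each pair of libraries. Members past 1.5-fold, small sets of calls and the examples from the pathway lists were added after their values were seen. The members and lists were chosen with earlier results of these data known.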

Additional observations from a re-analysis of the deposited data

Results flagged for a closer look

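Cells that the comparisons left out also held member RNA. In AngII, 263 cells with 10 to 20% mitochondrial UMIs had 2.24% of their UMIs from members, and in AngII_VWR 482 such cells had 1.57%. In Vehicle the share was 0.947% in 437 cells. These results were singled out because a signal in cells outside the main measurement lay above its level in the saline library. The cells were shallow, with medians of 2109, 2323 and 1577.5 UMIs in Vehicle, AngII and AngII_VWR.

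The cells that passed both the fibroblast and the macrophage cut had 1.87% of UMIs from members in Vehicle (65 cells), 2.38% in AngII (14 cells) and 1.38% in AngII_VWR (76 cells). The AngII value was singled out for the same reason. Their median depths were 1556, 2266 and 894 UMIs in Vehicle, AngII and AngII_VWR. With 1 library a group, none of these differences was tested.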

How the results depend on the processing

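No paired analysis between treatments was possible because each group has 1 library and the labels carry no replicate numbers. Between classes the library was the block, which pairs the class sums of each library. Without that block 15 members were higher in fibroblasts and 6 in macrophages. Leaving out a library gave 10 to 13 and 4 to 6 members. Counts for macrophages were 5 with no filter on low counts and 5 in cells with 4000 to 8000 UMIs. The median member ratio of AngII over Vehicle in fibroblasts (-0.07) was 0.00097 with the median gene set to 0, -0.015 with each cell thinned to 2000 UMIs, 0.24 in cells with 4000 to 8000 UMIs and -0.0081 as a mean over cells. In macrophages (0.04) it was -0.039 as a mean over cells. For AngII_VWR over AngII in fibroblasts (-0.05) the same 4 settings gave -0.15, -0.18, -0.44 and -0.13, and in macrophages (-0.02) the median gene set to 0 gave -0.20. The Ndufa4 ratio in fibroblasts (0.64) was -0.19 in cells with 4000 to 8000 UMIs. Of the single members' ratios under the alternatives, 168 moved by less than their counting interval and 71 by more. The Ndufa4 ratio past 1.5-fold given above was the 1 counted as reversed. That count does not hold every change of sign. The Cox5a ratio in fibroblasts given above also changed sign in cells with 4000 to 8000 UMIs. Of the single fold changes between classes, 216 kept their side of the threshold, 6 lost the call and 4 gained it. A change of direction was looked for only in members with a call, and none was found. In the rest, the median of AngII_VWR over AngII (-0.19) was 0.09 thinned, 0.20 in cells with 4000 to 8000 UMIs and 0.12 as a mean over cells. The cause of these shifts was not tested.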
